A study of Rattus norvegicus with 35 samples.

Results

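Slc10a1, Abcb11, Abcb4, Abcc2, Abcc3 and Abcc4 encode carriers that move bile acids, or the phospholipid and conjugates secreted with them, across the membranes of the hepatocyte. They were taken by gene symbol, and all 6 were present on the array with 1 probe set each among the 13439 genes measured by a probe set with a single symbol. Liver RNA of 35 rats was hybridised, 1 array per liver sample, and the values are normalized log2 signals. The series title gives liver injury after hemorrhage and resuscitation (H/R) in rodents with biliary cirrhosis, and the effect of simvastatin on it, as its subject.

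Secondary biliary cirrhosis was produced by tying and resecting the common bile duct, and ligated rats were examined after 4 weeks with vitamin K injected weekly in between. Some ligated rats received simvastatin, which blocks HMG-CoA reductase, in daily gavage doses of 5 mg per kg over the 3 days leading up to the study, the final dose 1 h ahead of it. The groups were ligated rats given simvastatin with H/R (simvastatin H/R, n = 8) or with the sham procedure (simvastatin sham, n = 5), ligated rats without simvastatin with H/R (ligated H/R, n = 6) or sham (ligated sham, n = 5), and control rats with H/R (control H/R, n = 6) or sham (control sham, n = 5). Strain, sex and age of the rats, any sham ligation of the controls and any vehicle gavage of the ligated rats without simvastatin are not stated in the labels. Nothing in the labels beyond group and number describes the single animals, so the spread behind each p-value is that between these arrays and may be partly technical.

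As background, bile acids return to the liver in portal blood and enter the hepatocyte through the sodium-dependent importer NTCP, encoded by Slc10a1. They leave into bile across the canalicular membrane through the bile salt export pump BSEP (Abcb11), while MRP2 (Abcc2) secretes conjugated organic anions such as bilirubin glucuronide and MDR2 (Abcb4) moves phosphatidylcholine into bile. MRP3 (Abcc3) and MRP4 (Abcc4) lie in the basolateral membrane and export bile acid conjugates back to blood. The farnesoid X receptor (Nr1h4) senses bile acids in the hepatocyte and acts on the genes of several of these carriers.

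Before the results, some properties of the arrays have to be given because they run along with the groups. The list of hepatocyte markers, 13 of whose 15 genes were measured, averaged 12.11 to 12.26 in the 4 ligated groups, against 12.60 and 12.62 in the control groups. Single arrays ran between 11.72 and 12.46 in ligated livers, against 12.56 to 12.69 in control livers. The list of cholangiocyte markers, 11 of 12 measured, averaged 8.53 to 8.71 in the ligated groups, against 5.11 and 5.21 in the control groups, and the 2 sets of arrays did not overlap. Of these 11, 1 was not above background in each ligated group, against 4 in each control group. The livers thus carried the RNA of hepatocytes in every group, with far more biliary marker RNA after ligation. In whole tissue, fewer cells of a type and less RNA per cell cannot be told apart. The brightest nonspecific control probe, used here as the background level, averaged 3.26 to 4.00 in ligated groups, against 4.51 and 4.59 in control groups. The closing digits of each sample title (its ending), whose meaning is not stated, also followed the groups. All 11 control arrays have the ending 13, which is shared by 9 simvastatin arrays and by 0 of the 11 ligated arrays without simvastatin.

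Ligated livers differed from control livers in 4 of the 6 carriers. The sinusoidal importer Slc10a1 and the canalicular pumps Abcb11 and Abcc2 were lower in ligated livers, the basolateral exporter Abcc3 was higher, and Abcb4 and Abcc4 did not pass the test. This held in ligated sham against control sham and in ligated H/R against control H/R. These comparisons share no array but use 1 shared spread, and in neither is a title ending present in both arms. In a fit with the ending as a block, given below, only Abcc3 passed in the sham comparison. Without the block 4 of the 6 carriers passed an adjusted p of 0.05 in each comparison (limma, Benjamini-Hochberg over all genes), 1 higher and 3 lower. Of all genes 47.6% passed in the sham comparison and 47% in the H/R comparison. With close to every other gene past the threshold, the count by itself says little about the carriers, and the sizes and directions follow.

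**Figure D1:**
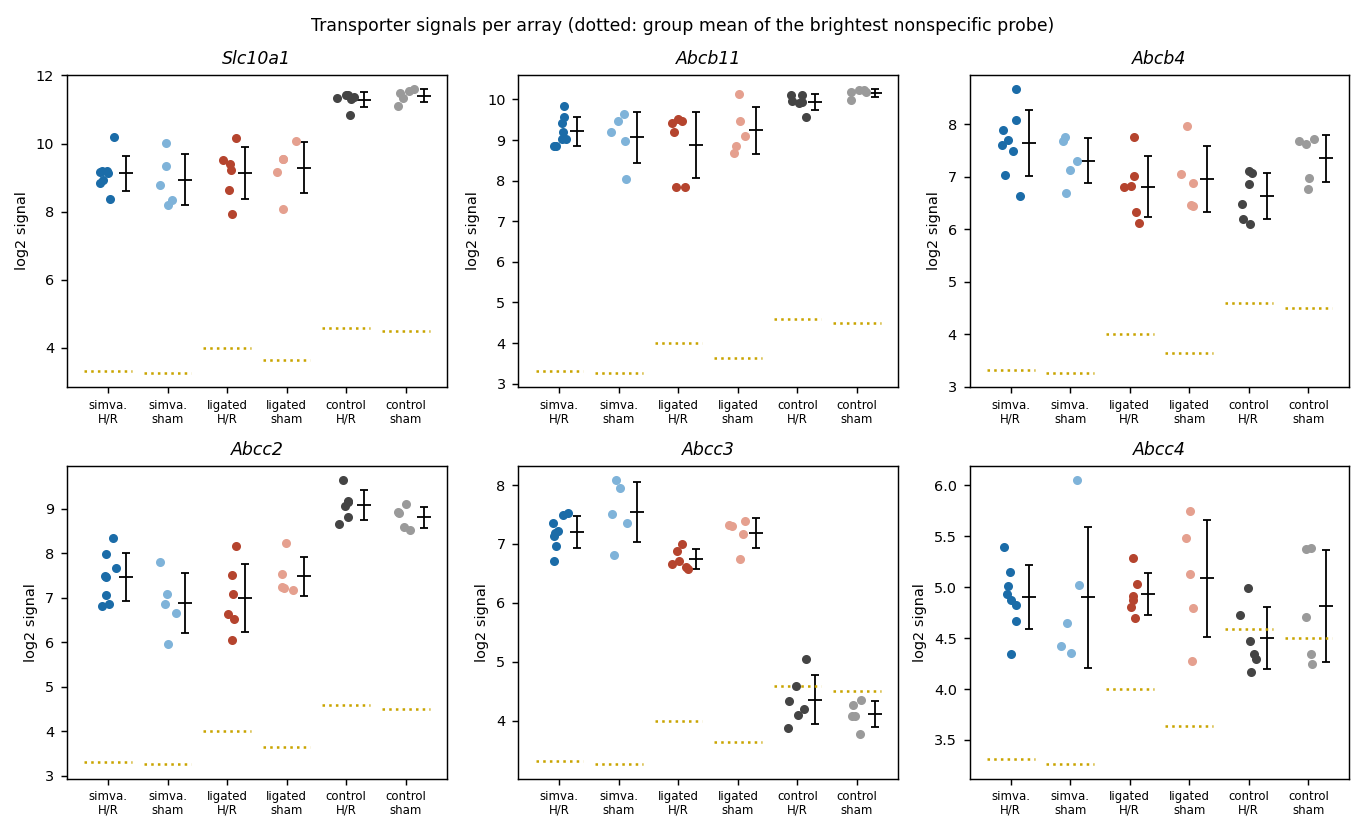
Log2 signal of each carrier on every array, by group from simvastatin H/R at the left to control sham at the right. Points are arrays, black bars are the mean ± SD of the group, and dotted lines are the group mean of the brightest nonspecific probe. Slc10a1 lay between 7.93 and 10.18 on all ligated arrays, below all control arrays, and Abcc3 lay above 6.5 on all ligated arrays and near the dotted line on control arrays.

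Slc10a1, on chromosome 6 of the GRCr8 assembly (chr6:106344319-106357944, probe set 1368609_PM_at), had log2 signals of 9.56, 9.18, 10.08, 8.09 and 9.55 in ligated sham livers, against 11.35, 11.09, 11.54, 11.59 and 11.47 in control sham livers. The groups did not overlap. The mean was 9.29 ± 0.74 in ligated sham livers and 11.41 ± 0.20 in control sham livers (SD, n = 5 each), a log2 difference of -2.12 ± 0.34 (SE), or 4.35-fold lower (limma, adjusted p = 5.5e-06). After H/R the lowest, median and highest values were 7.93, 9.31 and 10.15 in ligated livers, against 10.85, 11.36 and 11.43 in control livers, again without overlap. That difference was -2.14 ± 0.31, or 4.41-fold lower (limma, adjusted p = 1.1e-06). Among the 13439 genes, 86 had a more negative log2 difference than Slc10a1 in the sham comparison and 71 in the H/R comparison. The spread between ligated rats was wide, with SDs of 0.51 to 0.77 in the 4 ligated groups, against 0.20 and 0.22 in the control groups.

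Abcc2, the conjugate pump (chr1:252613875-252672459, probe set 1368497_PM_at), was the canalicular carrier with the larger measured fall, an order that was not tested. Its log2 signals were 7.16, 7.24, 8.23, 7.22 and 7.52 in ligated sham livers, against 8.59, 8.52, 8.92, 8.90 and 9.09 in control sham livers. Every ligated value lay under every control value, and the difference was -1.33 ± 0.32, or 2.51-fold lower (limma, adjusted p = 0.00091). After H/R the values of 6.04, 6.86 and 8.17 (lowest, median, highest) in ligated livers stood against 8.66, 9.10 and 9.64 in control livers. The groups again did not overlap, and the difference was -2.09 ± 0.29, or 4.25-fold lower (limma, adjusted p = 4.6e-07).

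Abcb11, the bile salt export pump (chr3:74424620-74520646, probe set 1368769_PM_at), had a smaller measured fall. Ligated sham livers had log2 signals of 9.09, 8.69, 10.13, 8.85 and 9.46, against 10.00, 10.23, 10.19, 10.18 and 10.23 in control sham livers. Replicate 3 of the ligated sham livers lay within the control range and the other ligated values lay below it. The difference was -0.92 ± 0.30, or 1.89-fold lower (limma, adjusted p = 0.012). After H/R the lowest, median and highest values were 7.84, 9.31 and 9.52 in ligated livers, against 9.56, 9.95 and 10.12 in control livers, a difference of -1.05 ± 0.27, or 2.07-fold lower (limma, adjusted p = 0.002). There the groups did not overlap, although the highest ligated and the lowest control value were close.

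Abcb4, the phospholipid transporter that accompanies bile salt secretion (chr4:26106895-26164440, probe set 1369161_PM_at), showed no call without simvastatin. Its log2 signals were 7.05, 6.43, 7.97, 6.45 and 6.87 in ligated sham livers, against 6.77, 6.98, 7.72, 7.63 and 7.68 in control sham livers, and the groups overlapped. The difference was -0.40, with a 95% interval of -1.06 to 0.26 (limma, adjusted p = 0.32). With H/R the lowest, median and highest values were 6.11, 6.81 and 7.76 in ligated livers, against 6.10, 6.67 and 7.11 in control livers. That difference was 0.17, with an interval of -0.43 to 0.77 (limma, adjusted p = 0.66). The sham interval includes a fall of the size seen for Abcb11, and neither interval includes one of the size seen for Slc10a1.

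Abcc3, the basolateral exporter (chr10:79793571-79839528, probe set 1369698_PM_at), moved the other way. It had log2 signals of 7.39, 7.32, 6.75, 7.30 and 7.17 in ligated sham livers, against 4.08, 3.78, 4.08, 4.27 and 4.35 in control sham livers. Neither control group was above background, so the fold is a bound. On each control array the larger of the brightest nonspecific probe and the gene's own signal was used, and the bound was taken against their mean. Abcc3 was at least 6.24-fold higher in ligated sham livers (measured log2 difference 3.07 ± 0.20, limma, adjusted p = 4.4e-14). After H/R the lowest, median and highest values were 6.57, 6.69 and 7.003 in ligated livers, against 3.88, 4.27 and 5.05 in control livers, and Abcc3 was at least 4.12-fold higher (measured log2 difference 2.38 ± 0.18, limma, adjusted p = 1.3e-12). No ligated array came near the control arrays in either comparison. The cholangiocyte marker list rose in the same arrays, by the values given above, and its part in the signal of Abcc3 was not tested.

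Abcc4, the other basolateral exporter (chr15:101948387-102182912, probe set 1379402_PM_at), was dim in all groups. It had log2 signals of 5.75, 5.13, 4.28, 5.48 and 4.80 in ligated sham livers, against 5.39, 4.35, 4.71, 5.38 and 4.24 in control sham livers, and the groups overlapped. The difference was 0.27, with a 95% interval of -0.28 to 0.82 (limma, adjusted p = 0.42). With H/R the lowest, median and highest values were 4.70, 4.89 and 5.28 in ligated livers, against 4.17, 4.41 and 5.00 in control livers, where the control group was not above background. Taken as for Abcc3, the bound was 1.08-fold, but no rise was established. The measured log2 difference of 0.43 had a 95% interval of -0.07 to 0.93 and did not pass over all arrays (limma, adjusted p = 0.15). It passed in a fit of those groups alone (limma, adjusted p = 0.029) and with each array centred on its hepatocyte markers (limma, adjusted p = 0.0074), in both cases against a control level that is only a bound.

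**Figure D2:**
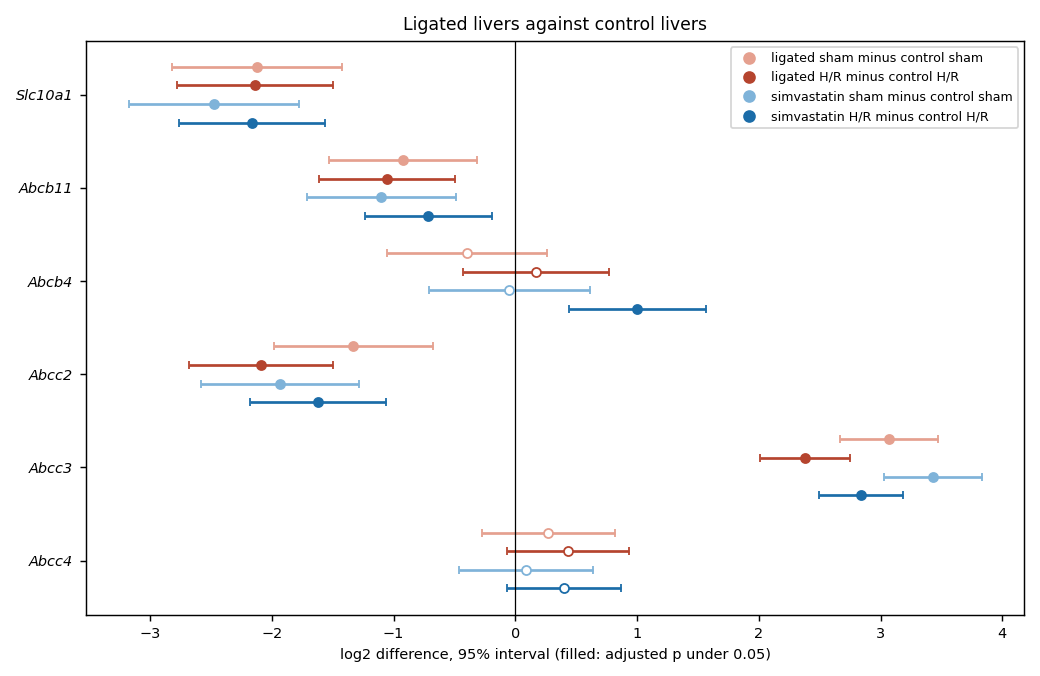
Log2 differences between ligated and control livers with 95% intervals from limma, with and without simvastatin and H/R. Filled points passed an adjusted p of 0.05. Slc10a1, Abcb11 and Abcc2 lie left of 0 and Abcc3 right of it in all 4 comparisons, while Abcb4 passed only in simvastatin H/R minus control H/R, at 1.00. Simvastatin and ligated groups of 1 procedure are set against the same control arrays.

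The sham comparison depended on how the title ending was treated. No ending is shared by ligated arrays without simvastatin and control arrays, so a fit with the ending as a block, added after the data were seen, links these groups only through the simvastatin and H/R arrays. In it the ligated sham against control sham difference was -0.23 ± 0.56 for Slc10a1, -0.62 ± 0.54 for Abcb11 and 0.24 ± 0.61 for Abcc2, whose sign turned (limma, adjusted p = 0.86, 0.54 and 0.86). Abcc3 kept a difference of 3.08 ± 0.42 (limma, adjusted p = 2.2e-05). The count over all genes fell to 1129, against 6402 without the block. After H/R the 4 calls remained in this fit, with differences of -1.23 for Slc10a1, -1.42 for Abcb11, -1.38 for Abcc2 and 2.63 for Abcc3 (limma, adjusted p = 0.034, 0.011, 0.03 and 6.5e-07). Over all genes 3480 of 13439 passed in that comparison with the block, against 6310 without it. In rats without simvastatin, sham or H/R, the effects of ligation and of the title ending cannot be told apart. The cause of the change was not tested.

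**Figure D3:**
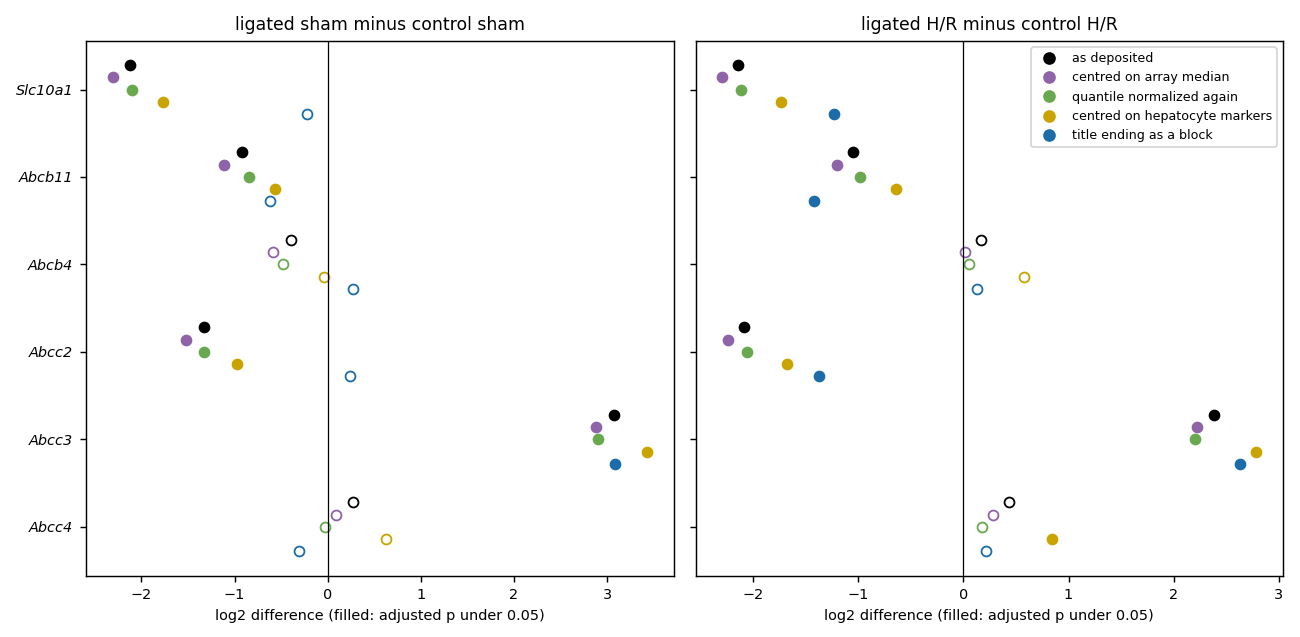
Log2 differences of the carriers between ligated and control livers under 5 treatments of the values, without H/R at the left and with H/R at the right. Filled points passed an adjusted p of 0.05. Abcc3 lies between 2.88 and 3.43 in the sham comparison, while the open blue points of Slc10a1, Abcb11 and Abcc2 lie at -0.23, -0.62 and 0.24 with the title ending as a block.

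Simvastatin-treated ligated livers, which share control arrays with the comparisons above, can be set against controls within 1 ending. In simvastatin sham against control sham 4 of 6 carriers passed, while 55.1% of all genes did. In simvastatin H/R against control H/R 5 of 6 passed, while 56.2% of all genes did. Over all arrays the differences of these comparisons were -2.48 ± 0.34 and -2.16 ± 0.29 for Slc10a1, -1.10 ± 0.30 and -0.71 ± 0.26 for Abcb11, and -1.93 ± 0.32 and -1.62 ± 0.27 for Abcc2, all lower (limma, adjusted p between 1.8e-07 and 0.018). Abcc3 was at least 7.98-fold higher in simvastatin sham livers and at least 5.67-fold higher in simvastatin H/R livers than in their controls (limma, adjusted p = 3.6e-15 and 1.9e-15). Restricted to arrays with the ending 13, the sham difference over 3 simvastatin and 5 control arrays was -2.23 for Slc10a1, -1.21 for Abcb11, -2.001 for Abcc2 and 3.49 for Abcc3. The H/R difference over 6 arrays of each kind was -1.99, -0.74, -1.45 and 2.92 for the same genes in that order. Within this ending the 4 carriers thus had differences of the same sign and similar size. Every ligated array with this ending came from a rat given simvastatin, so ligation and simvastatin cannot be told apart within it. For Abcb11 in simvastatin H/R livers the fall no longer passed with arrays centred on the hepatocyte markers, at -0.31 (limma, adjusted p = 0.17).

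Abcb4 was the additional carrier in simvastatin H/R livers. The lowest, median and highest values were 6.63, 7.64 and 8.67 in simvastatin H/R livers, against 6.10, 6.67 and 7.11 in control H/R livers. The groups overlapped, and the difference was 1.00 ± 0.28, or 2.00-fold higher (limma, adjusted p = 0.0026). Control H/R livers averaged 6.63 ± 0.44 and control sham livers 7.35 ± 0.45 (SD, n = 6 and 5), so the group set against simvastatin H/R had the lowest mean of the 6. In simvastatin sham against control sham livers the Abcb4 difference was -0.05 (limma, adjusted p = 0.91).

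Of the carriers that fell, Slc10a1 and Abcc2 have a promoter in the RefSeq table used here (GRCr8), where the window runs over 250 bases before and 50 bases after the annotated start. They are shown because Slc10a1 and Abcc2 had the larger measured falls among the carriers in the fit without the block. Capitals mark matches to AGGTCA, the half-site of many nuclear receptors, read on either strand (TGACCT on the other), and in Abcc2 also to TGACNNNGC, the core of the antioxidant response element.
Slc10a1, chr6:106357895-106358194, minus strand: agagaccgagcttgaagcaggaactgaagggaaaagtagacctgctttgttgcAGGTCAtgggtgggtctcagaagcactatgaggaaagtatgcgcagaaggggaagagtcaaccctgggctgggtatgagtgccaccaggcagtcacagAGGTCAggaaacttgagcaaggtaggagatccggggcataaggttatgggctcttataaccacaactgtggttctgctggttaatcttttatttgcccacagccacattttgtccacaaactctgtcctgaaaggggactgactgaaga
Abcc2, chr1:252613625-252613924, plus strand: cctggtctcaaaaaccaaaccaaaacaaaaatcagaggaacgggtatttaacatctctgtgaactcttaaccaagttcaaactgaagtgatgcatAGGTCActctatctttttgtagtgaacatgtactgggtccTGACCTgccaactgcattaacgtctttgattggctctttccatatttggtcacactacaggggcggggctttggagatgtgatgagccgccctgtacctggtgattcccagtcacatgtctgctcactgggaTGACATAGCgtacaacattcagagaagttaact
In Slc10a1 the half-site begins 197 and 99 bases before the start, and in Abcc2 it begins 155 bases before it and, on the other strand, 115 bases before it. TGACNNNGC begins 17 bases after the start of Abcc2. Across all 33469 promoters, 16.2% hold the half-site and 12.1% hold TGACNNNGC on either strand. The inverted repeat of the half-site with 1 base between, the element known for the farnesoid X receptor, is in neither of the promoters shown and in 0.0269% of all. These matches describe the letters only. The windows listed for Abcb4 and Abcc4 lie inside the genes as given above and are not compared. Abcb11 and Abcc3 were not analysed here for promoters.

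H/R itself moved none of the 6 carriers past the threshold in limma over all arrays without a block. In control livers 0.856% of all genes passed in H/R against sham, in ligated livers 0.134%, and in simvastatin-treated livers 0%, with 1635, 1401 and 725 of the 13439 genes at an unadjusted p under 0.05 in that order. Among the 6 carriers 1, 1 and 0 had an unadjusted p under 0.05 in the same order, which is close to the share of all genes. Abcb4 averaged 6.63 in control H/R livers and 7.35 in control sham livers, a difference of -0.72 ± 0.31 (95% interval -1.35 to -0.09, limma, adjusted p = 0.31). Abcc3 averaged 6.74 in ligated H/R livers and 7.18 in ligated sham livers, a difference of -0.45 ± 0.19 (95% interval -0.83 to -0.06, limma, adjusted p = 0.41). For Slc10a1 the H/R difference was -0.13 in control, -0.15 in ligated and 0.19 in simvastatin-treated livers, with 95% intervals reaching from -0.82 to 0.82. The intervals use 1 spread shared by all 6 groups and not that of the groups compared. The SDs of Slc10a1 were 0.20 and 0.22 in the control groups, against 0.51 to 0.77 in the ligated groups. In ligated livers the H/R differences depended on the title ending. With the ending as a block over all 35 arrays the H/R difference in ligated livers was -1.13 ± 0.35 for Slc10a1, -1.04 ± 0.34 for Abcb11, -0.86 ± 0.40 for Abcb4 and -1.35 ± 0.39 for Abcc2, and none passed (limma, adjusted p = 0.18, 0.2, 0.45 and 0.13). Within single endings the Slc10a1 difference was -1.50 (1 H/R against 3 sham arrays) and -0.71 (2 against 1). The 95% intervals of the fit without the block began at -0.82 for Slc10a1, -0.95 for Abcb11, -0.78 for Abcb4 and -1.11 for Abcc2. These intervals include smaller falls with H/R in ligated livers. Because they rest on the shared spread and take no account of the ending, they cannot exclude falls of the size given with the block.

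For Abcc2 the H/R differences with and without simvastatin had opposite signs, and the test of the difference between them did not pass. The signs were also opposite for Slc10a1 (0.19 with and -0.15 without simvastatin), Abcb11 (0.16 and -0.36) and Abcb4 (0.33 and -0.15). Abcc3 and Abcc4 were negative in both. Abcc2 averaged 7.46 ± 0.54 in simvastatin H/R livers and 6.87 ± 0.67 in simvastatin sham livers, and 6.99 ± 0.76 in ligated H/R livers and 7.48 ± 0.44 in ligated sham livers (SD). The differences were 0.59 ± 0.29 with simvastatin and -0.49 ± 0.31 without it, and neither passed (limma, adjusted p = 0.89 and 0.61). For Abcc2 the test of the difference between them gave 1.07 ± 0.42 (95% interval 0.22 to 1.93, limma, adjusted p = 0.86), where 0.00744% of all genes passed. With the ending as a block over all 35 arrays that test gave 1.22 for Slc10a1, 1.22 for Abcb11, 1.23 for Abcb4 and 1.89 for Abcc2. None passed (limma, adjusted p = 0.41, 0.38, 0.49 and 0.17), nor did any other gene. Abcc3 and Abcc4 had -0.17 and -0.21 there. Among arrays of the 2 endings that ligated H/R and ligated sham share, 3 against 4 arrays, the H/R difference of Abcc2 was -1.35 and passed (limma, adjusted p = 0.047), while the same difference did not pass with the block over all 35 arrays (limma, adjusted p = 0.13). Over those shared endings 37 of all genes passed, against 18 over all arrays without the block. For Abcc3 the H/R difference of ligated livers minus that of control livers was -0.69 ± 0.27 (95% interval -1.24 to -0.15, limma, adjusted p = 0.77), where 0.00744% of all genes passed as well. It did not pass, and the control values in it are not above background.

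Simvastatin also moved none of the carriers past the threshold in ligated livers over all arrays in limma, with 0 of 6 at an unadjusted p under 0.05 in sham rats and 2 of 6 after H/R, against 1453 and 1932 of all 13439 genes. In sham rats 0.781% of all genes passed in simvastatin against ligated livers, and after H/R 1.35% did. The differences of the carriers ran from -0.60 to 0.36 in sham rats and from -0.03 to 0.83 after H/R. Abcb4 had the lowest, median and highest values of 6.63, 7.64 and 8.67 in simvastatin H/R livers, against 6.11, 6.81 and 7.76 in ligated H/R livers, a difference of 0.83 ± 0.28 (95% interval 0.27 to 1.39, limma, adjusted p = 0.13). Abcc3 had 6.71, 7.20 and 7.53 in simvastatin H/R livers, against 6.57, 6.69 and 7.003 in ligated H/R livers, a difference of 0.46 ± 0.17 (95% interval 0.12 to 0.80, limma, adjusted p = 0.18). Both sets of values overlapped. Without replicate 3 of the ligated H/R livers the difference of Abcb4 was 1.02 and passed (limma, adjusted p = 0.042), and with array weights that of Abcc3 was 0.53 and passed (limma, adjusted p = 0.029). Array weights also raised the count over all genes after H/R to 744, against 182 without them. Slc10a1 differed by -0.02 after H/R, with a 95% interval of -0.62 to 0.58, but by -0.80 within the shared ending 12 (2 arrays of each group) and by -0.77 ± 0.39 with the ending as a block over all 35 arrays (limma, adjusted p = 0.69). Abcc2 differed by 0.47 after H/R over all arrays, by -0.45 within ending 12 and by -0.17 ± 0.42 with the block. In sham rats simvastatin and ligated livers share no ending, and the block gave -1.99 ± 0.52 for Slc10a1 and -2.06 ± 0.57 for Abcc2, against -0.36 and -0.60 without it (limma, adjusted p = 0.18 and 0.21 with the block). The size of these simvastatin differences thus depended on the title ending, none passed with the block, and the cause was not tested.

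**Figure D4:**
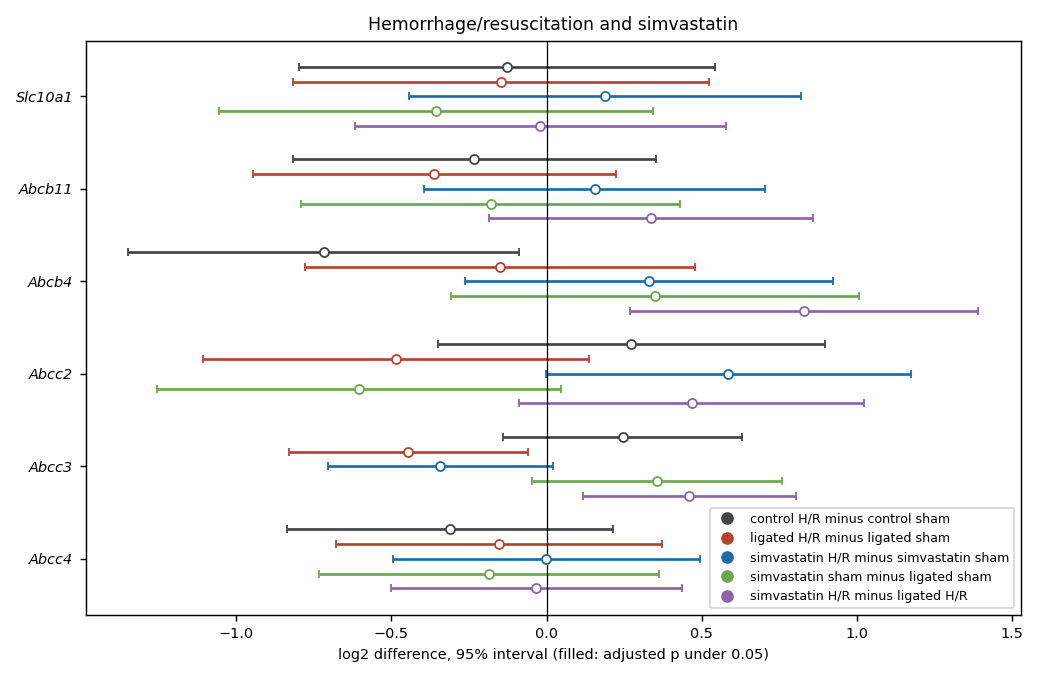
Log2 differences of the carriers for H/R minus sham in simvastatin-treated, ligated and control livers, and for simvastatin against ligated livers in sham and H/R rats, with 95% intervals from limma. All points are open because no carrier passed an adjusted p of 0.05. The interval of Abcb4 in simvastatin H/R minus ligated H/R lies right of 0, around 0.83, before adjustment over all genes.

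The order of the group means was as follows. For Slc10a1 it ran, from low to high, simvastatin sham at 8.93, simvastatin H/R at 9.12, ligated H/R at 9.14, ligated sham at 9.29, control H/R at 11.28 and control sham at 11.41. Only the step between ligated sham and control H/R exceeded the spread of its neighbours. For Abcc3 the order was control sham at 4.11, control H/R at 4.36, ligated H/R at 6.74, ligated sham at 7.18, simvastatin H/R at 7.20 and simvastatin sham at 7.54, with the single wide step between control and ligated livers. The means of Abcc2 were 6.87 in simvastatin sham, 6.99 in ligated H/R, 7.46 in simvastatin H/R, 7.48 in ligated sham, 8.80 in control sham and 9.08 in control H/R livers, and of these neighbours only ligated sham and control sham did not overlap. Those of Abcb11 were 8.88 in ligated H/R, 9.06 in simvastatin sham, 9.22 in simvastatin H/R, 9.24 in ligated sham, 9.93 in control H/R and 10.17 in control sham livers, where neighbours overlapped throughout.

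Around the group means the carriers of uptake and bile secretion varied together over the pooled arrays. After subtraction of the group means, the 6 pairs among Slc10a1, Abcb11, Abcb4 and Abcc2 had Pearson's r between 0.60 and 0.74 over the 35 arrays, while Abcc3 and Abcc4 had 0.43 and the other 8 pairs were below 0. These values are descriptions over arrays that share their hybridisation and their tissue make-up. Slc10a1 had SDs of 0.51 to 0.77 in the ligated groups, against 0.20 and 0.22 in the control groups. Abcb11 had 0.35 to 0.81, against 0.10 and 0.20. For these carriers the ligated arrays thus weigh most, and r was not computed within control livers alone. Against the mean of the hepatocyte markers the r was 0.90 for Abcb11, 0.71 for Abcc2, 0.67 for Slc10a1 and 0.62 for Abcb4, against -0.30 for Abcc3 and -0.02 for Abcc4. Against the cholangiocyte markers it was -0.75 for Abcb11 and 0.35 for Abcc3. The part of tissue make-up in the liver-to-liver spread was not tested.

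**Figure D5:**
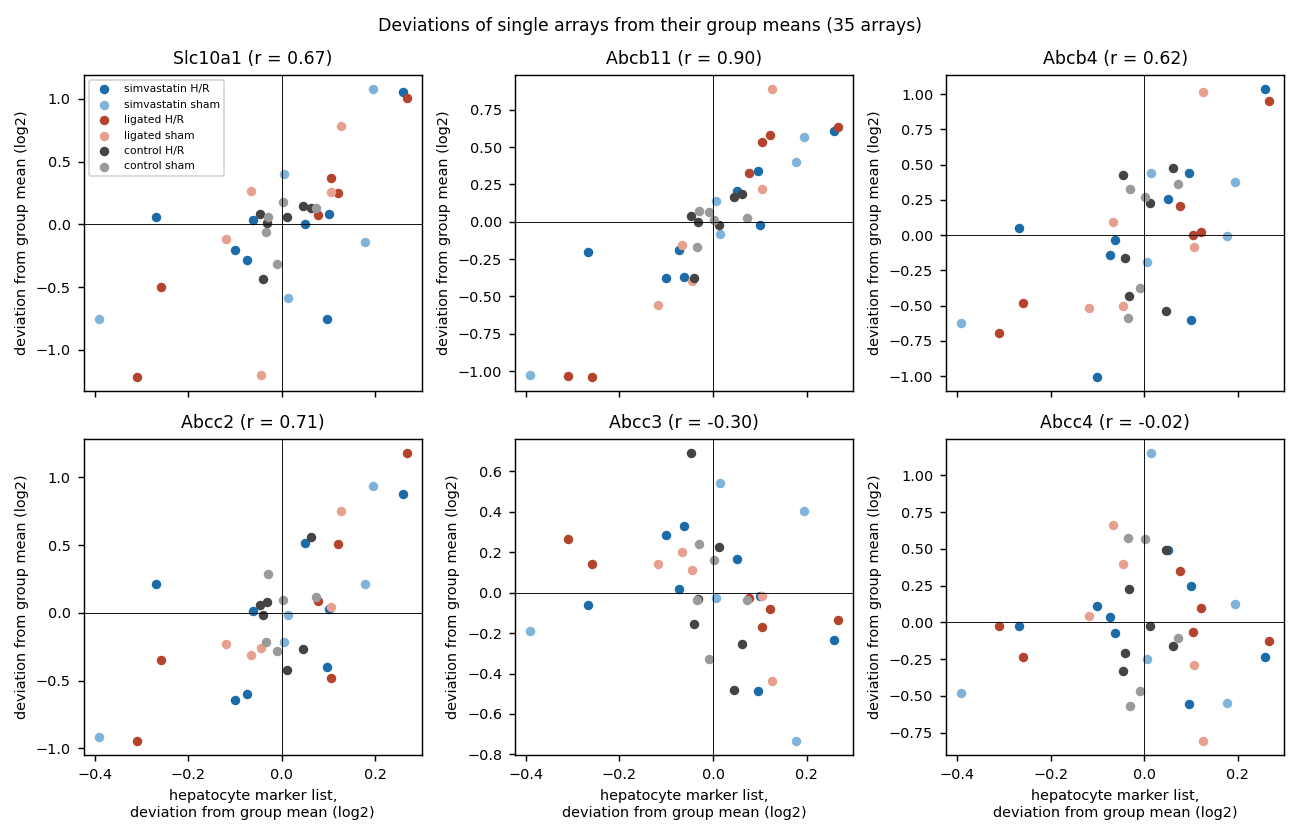
Deviation of each array from its group mean for the 6 carriers (vertical, log2) against the deviation of the mean of the hepatocyte markers (horizontal, log2), with groups in colour. The points of Abcb11 follow a rising line (r = 0.90), those of Slc10a1, Abcb4 and Abcc2 do so more loosely, and those of Abcc3 and Abcc4 do not (r = -0.30 and -0.02).

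The genes whose deviations were most like those of each carrier, by Pearson's r over 35 arrays among 9364 genes above the dim range, were as follows. Slc10a1 was nearest to Gstz1 (r = 0.90), Cyp2d2 (0.87) and Pon1 (0.87), and Abcb11 to C8b (0.92), F10 (0.91) and Asgr2 (0.91). C8b and F10 encode a complement and a coagulation factor made by hepatocytes, and Asgr2 a subunit of the asialoglycoprotein receptor. Abcb4 was nearest to Cpn1 (0.84), Slc22a7 (0.82) and Sc5d (0.81), and Abcc2 to Ddc (0.80), Gnmt (0.79) and Aldh4a1 (0.78). Abcc3 was nearest to Lcmt1 (0.72), Hmgn1 (0.67) and Bbip1 (0.66), and Abcc4 to Arhgef18 (0.79), Ptgis (0.72) and Tekt1 (0.70).

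The other genes of bile acid handling were read from lists chosen with earlier results of these data known, so their counts are descriptions, to be read against the 47.6% of all genes that passed without H/R (3394 higher, 3008 lower) and the 47% that passed with it (3314 higher, 2996 lower). All list values come from the fit without the title ending as a block, and values with it are not given for these genes. In the sham comparison the block lowered the count over all genes to 1129, against 6402 without it. Ligation and title ending cannot be told apart for the lists either. Among 17 measured sinusoidal carriers other than the members, 2 were higher and 11 lower in ligated sham than in control sham livers. After H/R 3 were higher and 11 lower. The median log2 difference was -1.25 without and -1.31 with H/R, against -0.04 and -0.03 over all genes. Slc22a8, the organic anion transporter OAT3, was at least 17.1-fold lower in ligated sham livers (limma, adjusted p = 2e-13). Slco2b1, an importer of organic anions, differed by -1.25 ± 0.24 (limma, adjusted p = 4.8e-05). Abcc1, the multidrug exporter MRP1, differed by 1.69 ± 0.25 and was higher, as was Abcc3 on the same membrane (limma, adjusted p = 9.7e-07).

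Among 11 canalicular pumps and partners, 2 were higher and 3 lower without H/R, and 2 were higher and 5 lower with it, against 47.6% and 47% of all genes past the threshold, so the first count is near that share. Cftr, a chloride channel of the biliary epithelium, was 3.54 ± 0.36 higher in ligated sham livers on the log2 scale (limma, adjusted p = 7.2e-10). Atp8b1, a phospholipid flippase of the canalicular membrane, was 0.83 ± 0.15 higher, and Abcg2, an efflux pump, differed by -0.98 ± 0.35 (limma, adjusted p = 2.5e-05 and 0.021). Of 16 scaffold and trafficking proteins, 9 were higher and 4 lower without H/R, and 8 were higher and 3 lower with it, against the same 47.6% and 47%. Ezr, the linker of membrane proteins to actin in biliary cells, differed by 3.21 ± 0.27 and Vil1, a microvillus protein, by 2.23 ± 0.29 (limma, adjusted p = 1.1e-11 and 1.6e-07). The cholangiocyte marker list was higher in the same arrays, and its part in these genes was not tested.

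Of 25 nuclear receptors and signals, 4 were higher and 7 lower without H/R, and 3 were higher and 10 lower with it, which is near the 47.6% and 47% of all genes and no result about the list. Nr1h4 averaged 7.83 in ligated sham livers and 8.92 in control sham livers, a difference of -1.09 ± 0.24, and it differed by -0.83 ± 0.22 after H/R (limma, adjusted p = 0.00029 and 0.002). Nr0b2, the small heterodimer partner that Nr1h4 induces, differed by -0.67 and 0.18 and did not pass (limma, adjusted p = 0.15 and 0.7). Nr1i2, the pregnane X receptor, differed by -1.01 ± 0.26 without H/R, and Hnf4a, a hepatocyte transcription factor that is also among the hepatocyte markers, by -0.78 ± 0.21 (limma, adjusted p = 0.0017 and 0.0025).

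Of 26 genes of bile acid synthesis and conjugation, 3 were higher and 14 lower without H/R, and 4 were higher and 16 lower with it, against 47.6% and 47% of all genes. Cyp7a1, the rate-limiting enzyme of the classic pathway, was among those that rose. It averaged 11.20 in ligated sham livers and 8.67 in control sham livers, a difference of 2.53 ± 0.41, and was 1.02 ± 0.38 higher after H/R (limma, adjusted p = 6e-06 and 0.026). Cyp39a1, an oxysterol hydroxylase, differed by -2.10 ± 0.26 and Hsd3b7, an enzyme of steroid nucleus conversion, by -1.38 ± 0.16 (limma, adjusted p = 4.9e-08 and 1.5e-08). In the H/R and simvastatin comparisons these 5 lists gave calls only for Cyp39a1, which was lower in simvastatin sham than in ligated sham livers with a difference of -1.28 (limma, adjusted p = 0.0072), and for Akr1c14, an aldo-keto reductase, which was higher in simvastatin H/R than in ligated H/R livers by 1.20 (limma, adjusted p = 0.022).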

How the data were processed

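Per the labels, total liver RNA of 35 rats was labelled with biotin for Affymetrix arrays of 1 colour. The labels' extract protocol describes histology and not RNA extraction. The authors deposited log2 signals per probe set, normalized by a method not given in the sources used here. Values ran from 1.51 to 13.79, and precision rests on 5 to 8 arrays per group.

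Of 31139 probe sets, 19069 carried 1 symbol and entered the tests, with the brightest probe set for each of 13439 genes. Where a group mean did not exceed that of the brightest nonspecific probe, the gene counts as not above background there and its fold as a bound. The 6 groups of all 35 arrays entered a single linear model in limma 3.58.1 (R 4.3.3), which was checked on simulated data. Each of 11 comparisons was adjusted by Benjamini-Hochberg over all genes, with a threshold of 0.05.

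The members and lists were chosen with earlier results of these data known. Named genes were the 6 carriers, Nr1h4, Nr0b2 and Cyp7a1, list members of smallest p past the threshold, of which a few are given, and the 3 genes most like each carrier. Replicate numbers follow sample order and pair nothing. Alternatives were other fits, filters, normalizations, centring, title endings as a block and leaving out each array. Protein sequences were not used here.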

Additional observations from a re-analysis of the deposited data

Results flagged for a closer look

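Single arrays stood apart from the others of their group by Dixon's test in 4 of 36 groups of carrier values, where chance gives about 1 in 20 for a single test. The 36 tests are not independent, because all carriers were read on the same arrays, so no excess over chance can be read from the count. Replicate 6 of control H/R was low for Slc10a1, at 10.85 against a next value of 11.30, and for Abcb11, at 9.56 against 9.91. Replicate 3 of simvastatin H/R was high for Slc10a1, at 10.18 against 9.21, and still under all control arrays. Replicate 1 of control sham was low for Abcb11, at 10.00 against 10.18. Leaving out any of these arrays changed no call of a carrier in the comparisons of ligated with control livers.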

How the results depend on the processing

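Leaving out each array of the compared groups in turn changed no carrier's call in the 4 comparisons of ligated with control livers. The count of carriers past the threshold in simvastatin H/R against ligated H/R was 0 with all arrays, 0 to 1 with an array left out (Abcb4 at 1.02, adjusted p = 0.042, without ligated H/R replicate 3) and 1 with array weights (Abcc3 at 0.53). In that comparison 182 of all genes passed without array weights and 744 with them. In ligated H/R against ligated sham the carrier count was 0, and 1 with the title ending as a block over shared endings (Abcc2 at -1.35, limma, adjusted p = 0.047, but 0.13 with the block over all 35 arrays). There 18 of all genes passed without the block and 37 with the block over shared endings. In ligated sham against control sham the carrier count was 4, and 1 with the ending as a block over all 35 arrays, against 6402 and 1129 of all genes. With that block Abcc2 reversed to 0.24, and Slc10a1 and Abcb11 lost their calls at -0.23 and -0.62. The cause was not tested. Abcc4 passed in simvastatin H/R against control H/R under 4 of 10 other settings, but control H/R is not above background for it and the bound is 1.06-fold. Centring moved the median of all genes in ligated sham against control sham to -0.23 on array medians (2594 higher, 5128 lower) and to 0.31 on hepatocyte markers (5394 higher, 1001 lower), against -0.04 as deposited (3394 higher, 3008 lower). Slc10a1, Abcb11, Abcc2 and Abcc3 kept their sign and call there under both. A change of sign of a value that passed under neither setting is not counted as a reversal. No paired analysis was possible because the replicate numbers only follow sample order. Signals near background limit Abcc3 and Abcc4 in control livers, while Abcc4 was dim but above background in the ligated groups.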
